A study of Mus musculus with 21 samples.

Results

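The V genes of the immunoglobulin kappa light chain (Igkv genes) were examined in small intestinal IgA+ plasma cells (IgA+ PCs). Members were the rows whose symbol starts with Igkv, whose biotype is an immunoglobulin V gene or V pseudogene, and whose counts summed to at least 10 over 21 mice. Of 160 rows with such a symbol and biotype, 121 reached this total, and these were 99 functional V genes and 22 V pseudogenes. The other 39 rows included 22 without a count in any mouse. The full table held 53801 genes, of which 20256 reached the same total and were tested.

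A developing B cell joins 1 of its Igkv genes to 1 of the Igkj segments, and the joined exon is spliced to the constant exon Igkc. Each plasma cell clone therefore expresses mainly the V gene that its founder B cell chose, and a clone that expands adds RNA of that V gene to the pool. In a sorted population the share of each V gene depends on how the RNA divides among clones, but more cells of a clone and more RNA per cell cannot be told apart.

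RNA was measured in CD138+ IgA+ PCs of the small intestine, sorted from the lamina propria of mice on the C57BL/6 background, with 1 library for each mouse. Control mice were Mb1Cre-/- x Arntlfl/fl, with 6 at ZT0 and 6 at ZT12, and knockout mice were Mb1Cre+/- x Arntlfl/fl, with 4 at ZT0 and 5 at ZT12. Zeitgeber time (ZT) counts hours from lights on, so ZT0 is lights on and ZT12 is lights off in a day of equal light and dark. The comparisons ask whether the transcripts of IgA+ PCs differ by time of day and whether this depends on their own clock. Both genotypes carry the floxed Arntl alleles, the gene of the clock protein Bmal1. Cre in the Mb1 locus, which is Cd79a, acts in the B cell lineage from the pro-B stage, before light chains are rearranged, so the deletion can precede the choice of a kappa V gene. Ages and sexes of single mice were not given in the sources used here. Genotypes follow the sample titles, because 8 of the 9 samples titled as knockout carry the control genotype in their genotype field.

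Libraries held 14471018 to 22785835 counts, and between 739920 and 1265696 of these fell on Igkv members. Arntl lay between 7.21 and 9.06 CPM (counts scaled to a total of 1000000 per library) in control mice at ZT0 and between 4.22 and 5.88 CPM in knockout mice at ZT0. At ZT12 the genotypes overlapped, at 3.29 to 5.65 and 3.29 to 4.83 CPM. The deposited counts cover whole genes and not the floxed exon. Cd79a, the locus that carries Cre, was at 442 to 607 CPM in control and 176 to 285 CPM in knockout mice at ZT0. At ZT12 it was at 412 to 494 and 188 to 256 CPM, so the genotypes given by the titles did not overlap at either time. The 8 plasma cell markers summed to between 322747 and 428663 CPM, whereas 8 markers of other B cells, 6 of T cells and 6 of myeloid cells summed to at most 39.1, 30.5 and 73.6 CPM. The 6 epithelial markers summed to 50.4 to 473 CPM. No marker of these 5 lists was at 0 in all libraries. Control ZT12 replicate 2 had the lowest sums of the other B cell, T cell and myeloid lists, at 11.0, 7.81 and 9.83 CPM, and the part of this in its V gene usage was not tested.

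The members lie on chromosome 6 of GRCm38 between 67555497 and 70704177, and all 121 have the same position and strand in the GENCODE M21 annotation. They stand 18.4 to 3166 kb from Igkj1, on both strands, with 71 on the minus and 50 on the plus strand. Igkc itself lies at chr6:70726435-70726966 on the plus strand. The V exons of 3 members are shown because each led the kappa pool of at least 1 mouse in a different way: Igkv10-96 in most mice, and Igkv8-28 and Igkv19-93 at very high levels in single mice. Each exon holds the end of the leader and the V region, read 5′ to 3′ on the minus strand of GRCm38. Igkv10-96 is at chr6:68631963-68632260, Igkv19-93 at chr6:68736297-68736594, and the last 300 bases of the Igkv8-28 exon at chr6:70143593-70143892. Capitals mark the bases from the codon of the last in-frame cysteine to the end of the exon. These bases hold the germline start of the third complementarity-determining region (CDR3).
Igkv10-96: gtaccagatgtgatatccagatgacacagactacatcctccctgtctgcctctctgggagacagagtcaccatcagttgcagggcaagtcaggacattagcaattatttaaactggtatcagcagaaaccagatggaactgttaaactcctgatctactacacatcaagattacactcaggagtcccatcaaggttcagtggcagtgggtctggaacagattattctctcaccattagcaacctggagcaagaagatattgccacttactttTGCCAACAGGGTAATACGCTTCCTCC
Igkv8-28: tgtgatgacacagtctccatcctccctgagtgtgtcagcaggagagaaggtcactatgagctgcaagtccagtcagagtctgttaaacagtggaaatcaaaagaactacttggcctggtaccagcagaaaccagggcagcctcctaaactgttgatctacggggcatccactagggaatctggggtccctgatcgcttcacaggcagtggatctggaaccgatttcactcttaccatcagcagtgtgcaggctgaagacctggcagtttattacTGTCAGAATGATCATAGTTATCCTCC
Igkv19-93: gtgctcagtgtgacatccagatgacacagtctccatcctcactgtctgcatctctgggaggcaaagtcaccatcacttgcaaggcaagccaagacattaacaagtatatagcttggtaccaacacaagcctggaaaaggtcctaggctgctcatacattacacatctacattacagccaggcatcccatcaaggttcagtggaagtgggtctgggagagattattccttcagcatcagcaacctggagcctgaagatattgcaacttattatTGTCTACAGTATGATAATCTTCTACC

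The germline ends of these and 7 other named members are given as the last 30 bases of each exon, with the same capitals. This stretch holds the part of the V gene that enters the antigen-binding CDR3.
Igkv10-96: ctttTGCCAACAGGGTAATACGCTTCCTCC
Igkv1-117: ttacTGCTTTCAAGGTTCACATGTTCCTCC
Igkv1-110: tttcTGCTCTCAAAGTACACATGTTCCTCC
Igkv6-15: tttcTGTCAGCAATATAACAGCTATCCTCT
Igkv6-23: tttcTGTCAGCAATATAGCAGCTATCCTCT
Igkv8-28: ttacTGTCAGAATGATCATAGTTATCCTCC
Igkv8-30: ttacTGTCAGCAATATTATAGCTATCCTCC
Igkv8-27: gtttattacTGTCATCAATACCTCTCCTCG
Igkv8-24: cttcTGTCAGCAACATTATAGCACTCCTCC
Igkv19-93: ttatTGTCTACAGTATGATAATCTTCTACC

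Many members resemble one another. Over the 99 functional members the identity of the V exon to its nearest relative among them ranged from 64.7% to 99.0%, with a median of 94.4%. Of these, 72 shared at least 1 stretch of 50 bases with another functional member. Igkv8-28 was 97.8% identical to Igkv8-19, yet 16.5% of its windows of 50 bases were found elsewhere among the functional members. No 50-base window of Igkv19-93, Igkv5-48 or Igkv8-24 recurred in the V exon of another functional member. The V pseudogenes were not part of this search. Igkv1-117 and Igkv1-110 were 96.8% identical and shared 45.8% of the windows of Igkv1-117, so counts of these genes are uncertain where a read could fit both. The V genes of IgA+ PCs also carry somatic mutations, and how the authors' counting treated reads that fit several members is not given in the sources used here.

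Usage is the share of a mouse's Igkv counts that fell on a member. Usage was spread over many genes. A mean usage of at least 1% was reached by 36 members, which together made up 82.3% of Igkv counts, and 70 members with at least 0.1% made up 98.8%. The 22 pseudogenes summed to between 0.020% and 0.11% of Igkv counts in a mouse. The members fall into 20 families by sequence, of which family 6 held 14.9% ± 4.33 of Igkv counts, family 4 14.8% ± 3.60, family 1 13.4% ± 2.96, family 8 12.2% ± 8.83 and family 10 10.1% ± 3.38 (mean ± SD, n = 21). Family 8 was the least even of the 5, and it ranged from 5.20% to 42.4%.

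Igkv10-96, a minus strand gene 2090 kb from Igkj1, was the most used member. It led the Igkv counts in 14 of 21 mice and was among the 10 leading members in 20. Its usage ranged from 6.01% to 13.2% in control mice at ZT0 with a median of 9.67%, and from 2.36% to 14.5% at ZT12 with a median of 7.92%. In knockout mice it was 5.99%, 7.62%, 4.58% and 8.16% at ZT0 and 6.25%, 2.54%, 7.87%, 10.9% and 7.79% at ZT12. All 4 groups overlapped. The mice with the 3 lowest values were control ZT12 replicate 2, knockout ZT12 replicate 2 and control ZT12 replicate 4, each of which was led by another member.

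Igkv1-117, Igkv1-110 and Igkv1-135 of family 1 followed, with mean usages of 5.00%, 4.10% and 3.70%, and then Igkv6-15 and Igkv6-23 of family 6 with 3.59% and 3.57%. Corrected for gene length, Igkv10-96 and Igkv1-117 kept ranks 1 and 2, Igkv6-15 moved to rank 3, and the 11 members with the highest usage were also the 11 highest per length. Igkv1-117 led in control ZT0 replicate 5 at 6.88% and in knockout ZT0 replicate 3 at 11.4%. Igkv6-23 led in control ZT12 replicate 1 at 7.47%, where Igkv10-96 had 7.32%. Igkv8-27 led in knockout ZT0 replicate 1 at 11.0%, against a median of 1.44% over all mice.

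**Figure D1:**
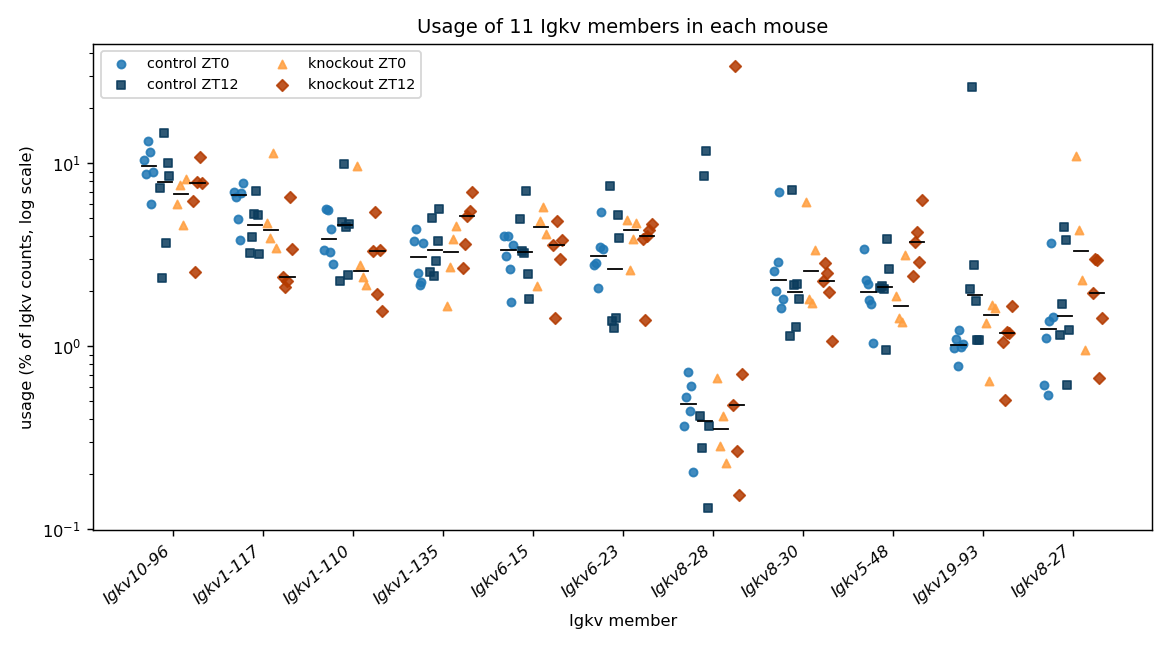
Usage of 11 Igkv members, the 10 with the highest mean and Igkv8-27, as percent of Igkv counts on a log axis, with 1 point per mouse in 4 groups and a black line at each group's median. Igkv8-28 sits at 0.13% to 0.73% in 18 mice and at 8.49%, 11.6% and 33.9% in the other 3, and Igkv19-93 reaches 26.1% in a single control mouse at ZT12.

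Igkv8-28 was the least even of all members with a usage of at least 5% in some mouse. Its usage was 0.21% to 0.73% in the 6 control mice at ZT0 and 0.23% to 0.67% in the 4 knockout mice at ZT0. The control mice of ZT12 had 0.42%, 0.28%, 8.49%, 11.6%, 0.13% and 0.36%, and the knockout mice of ZT12 0.48%, 33.9%, 0.27%, 0.15% and 0.70%. Thus 3 mice stood far above the other 18, and these were all sampled at ZT12, in both genotypes. They also stand next to one another in the order of the deposited columns, in a stretch that holds mice of all 4 groups. What that order reflects is not given in the sources used here, and its part in these values was not tested. The highest value was 81.5 times the median over all mice, and its 95% Wilson interval of 33.8% to 34.0% covers counting error only, since reads carry no molecular identifiers. The groups overlapped in each comparison. The log2 fold change at ZT12 over ZT0 was 2.95 ± 1.33 (SE) in control mice and 4.29 ± 1.70 in knockout mice, with adjusted p of 0.253 and 0.613 in edgeR's quasi-likelihood test. The control value was 2.03 without control ZT12 replicate 4, and the knockout value was 0.17 without knockout ZT12 replicate 2. Igkv8-19, its nearest relative in sequence, had 0.33%, 0.45% and 0.39% in the 3 mice with high Igkv8-28, below its median of 0.52%.

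The same 3 mice also stood apart in the heavy chain. Among Ighv genes, the V genes of the heavy chain, Ighv13-2 led in control ZT12 replicates 3 and 4 with 12.4% and 18.3% of Ighv counts and in knockout ZT12 replicate 2 with 44.0%, and in no other mouse. In the other 18 mice Ighv13-2 took 0.015% to 0.84%. The order of the 3 mice was the same for both genes. This coincidence was found after the values were seen and is given as a description. Bulk counts do not show which heavy and light chains came from the same cell.

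**Figure D2:**
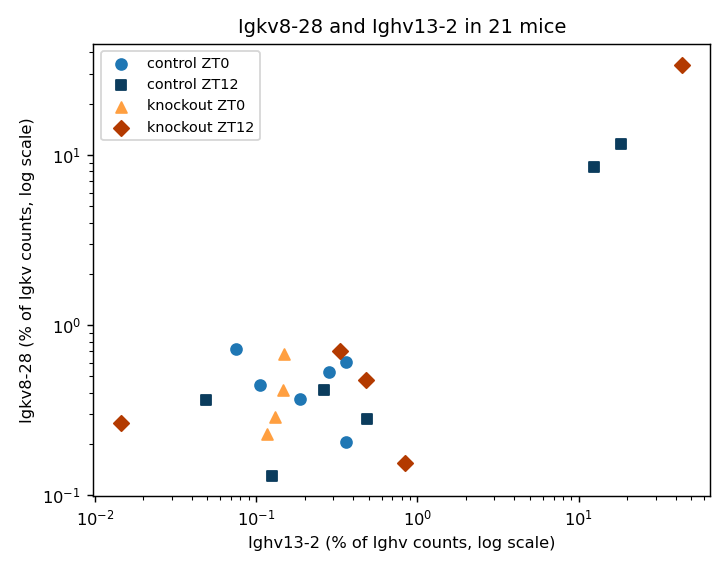
Share of Ighv13-2 among Ighv counts against usage of Igkv8-28 among Igkv counts, both in percent on log axes, with 1 point per mouse. At the upper right lie 3 mice at ZT12, with 12.4% to 44.0% of Ighv13-2 and 8.49% to 33.9% of Igkv8-28, and the other 18 lie below 1% of both.

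Igkv19-93, the only member of its family, was high in 1 mouse. Control ZT12 replicate 2 had 26.1% (95% Wilson interval 26.0% to 26.2%), while the other 5 control mice at ZT12 had 2.06%, 2.80%, 1.77%, 1.08% and 1.08%. Control mice at ZT0 ranged from 0.78% to 1.22% with a median of 1.01%. The knockout values were 0.64% to 1.68% at ZT0 and 0.51% to 1.65% at ZT12. Its difference between ZT12 and ZT0 in control mice, 2.67 ± 0.71 on the log2 scale, had an adjusted p of 0.0669 in edgeR and missed the threshold. It passed in edgeR with the filterByExpr filter on low counts (adjusted p 0.0460) and without control ZT12 replicate 1 (0.0334) or 6 (0.0330). Without control ZT12 replicate 2 the difference was 0.92. The Ighv counts of control ZT12 replicate 2 were led by Ighv1-78 at 19.0%. That mouse also had the second lowest effective number of members and the lowest ratio of Igkv to Igkc counts, 0.306.

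The effective number of members, the exponential of the Shannon entropy of usage, gives the number of equally used V genes that would have the same diversity. It was 45.3, 48.5, 47.0, 45.8, 46.5 and 46.2 in control mice at ZT0. At ZT12 control mice had 44.5, 23.8, 30.0, 33.8, 41.4 and 46.0. Knockout mice had 33.9, 49.6, 38.8 and 46.3 at ZT0 and 51.5, 22.4, 45.4, 43.7 and 47.2 at ZT12. Control mice at ZT0 were close to one another, and each of the other groups held mice of low diversity. The means were 46.5 ± 1.11, 36.6 ± 8.84, 42.1 ± 7.12 and 42.0 ± 11.4 (SD) in the same order.

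In control mice the effective number was 9.96 ± 3.64 (SE) lower at ZT12 than at ZT0, with an exact two-sided permutation p of 0.00649. The share of the 10 leading members was 11.1 ± 4.10 percentage points higher at ZT12, at 54.5% against 43.4%, with an exact permutation p of 0.0108. With 7 values per mouse and 5 comparisons, 35 tests were made, and after Benjamini-Hochberg adjustment both gave 0.126. Before adjustment 5 of the 35 p-values were below 0.05, and none passed after it. With control ZT12 replicate 6 left out, these control differences, at -11.8 members and 13.4 points, passed the adjusted threshold. In knockout mice the effective number differed by -0.080 ± 6.20 between the times (exact permutation p = 1.0). The genotypes' time differences differed by 9.88 ± 7.19 (p = 0.149 by permutation of genotype within each time). A difference of time effects between genotypes was therefore not detected.

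The third of the 5 values was the ratio of Igkv to Igkc counts. It was 0.651 ± 0.062 in knockout mice at ZT12 (SD, n = 5) and 0.492 ± 0.108 in control mice at ZT12 (n = 6), a difference of 0.159 ± 0.052 with an exact permutation p of 0.0152 and an adjusted p of 0.133. The 5 knockout values ran from 0.578 to 0.735 and the 6 control values from 0.306 to 0.591, so that the groups overlapped. Members on the far side of the median position of the locus, seen from Igkc, held 44.9% ± 1.66 of Igkv counts in knockout mice and 51.6% ± 2.93 in control mice at ZT0 (exact permutation p = 0.00952, adjusted 0.126). The corresponding difference at ZT12 was -3.96 ± 4.64 points (exact permutation p = 0.413). Members on the strand opposite to Igkc rose from 59.9% ± 4.52 to 67.2% ± 6.51 of Igkv counts in control mice, with an exact permutation p of 0.0476 and an adjusted p of 0.333, and so did not pass the test.

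**Figure D3:**
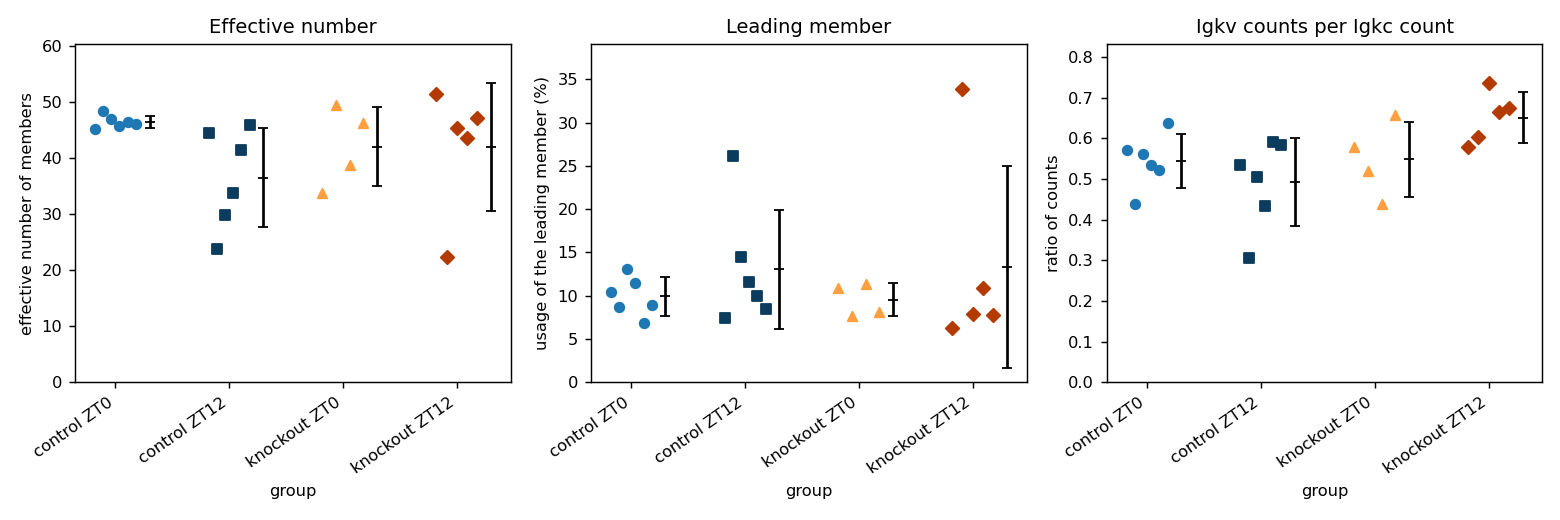
Effective number of Igkv members, usage of the leading member in percent and Igkv counts per Igkc count, with 1 point per mouse in 4 groups and a black bar at the mean ± SD. Control mice at ZT0 lie between 45.3 and 48.5 effective members, while 1 mouse of knockout ZT12 lies at 22.4 and 1 of control ZT12 at 23.8.

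How similar the V gene pools of mice were was measured as the percentage of usage not shared by a pair of mice. Within groups it ranged from 19.8% to 55.4% with a median of 28.4% over 46 pairs, and between groups from 18.7% to 55.8% with a median of 34.1% over 164 pairs. In control mice the median was 24.5% at ZT0 (20.2% to 28.3%) and 46.4% at ZT12 (27.9% to 55.4%). In knockout mice it was 38.4% at ZT0 (31.2% to 41.6%) and 25.5% at ZT12 (19.8% to 49.6%). Without knockout ZT12 replicate 2, the other 6 pairs of that group ran from 19.8% to 25.8%. Pairs reuse mice, so no test was made.

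Spread between mice of the same group was much wider for Igkv members than for other genes of similar level. Among genes with a mean of at least 100 CPM, the within-group SD of log2 CPM had a median of 1.05 over 68 Igkv members and of 0.22 over 732 genes that are not immunoglobulin genes. The 10th to 90th percentiles were 0.74 to 1.50 and 0.12 to 0.38. Igkc and Igha, the constant genes of the kappa and IgA heavy chains, had SDs of 0.10 and 0.11, and Jchain had 0.083. The V genes therefore varied between mice far more than Igkc, the constant gene to which they are spliced, and than Igha.

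**Figure D4:**
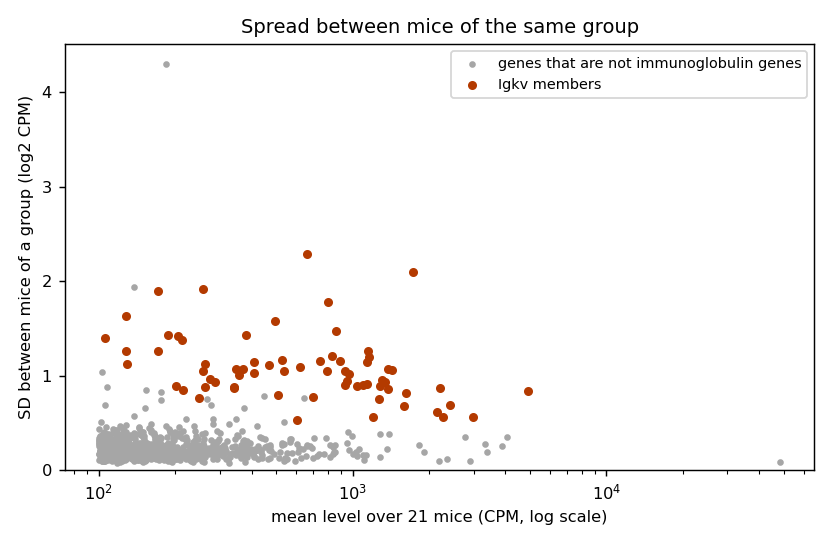
Mean level over 21 mice (CPM, log axis) against the SD between mice of the same group (log2 CPM) for 68 Igkv members and 732 genes that are not immunoglobulin genes, all with a mean of at least 100 CPM. Most Igkv members lie between 0.74 and 1.50, above the main band of other genes at 0.12 to 0.38.

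Between ZT12 and ZT0 in control mice, 2 of 121 members passed edgeR's adjusted p of 0.05, against 1.73% of all 20256 genes tested. DESeq2 called 7 of the 103 members to which it gave an adjusted p, against 8.5% of all such genes. The edgeR count was 0 with only the control groups in the fit, and 0 to 5 with 1 mouse left out, with 0 in 7 of 21 such fits. The share called was near the background by both tools, and the count itself was not stable. Of the 2 members called by edgeR, 1 was higher and 1 lower, against 0.948% and 0.78% of all genes. At an unadjusted p under 0.05 there were 17 members (14%), against 18.1% of all genes. The median log2 change was -0.029 over members and 0.0063 over all genes, and the median SE was 0.67 over members and 0.35 over all genes.

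Igkv8-24, a functional gene of family 8, was higher at ZT12. Its usage ranged from 0.33% to 1.09% in control mice at ZT0 with a median of 0.74%, and was 0.82%, 5.14%, 3.79%, 6.60%, 2.78% and 1.87% at ZT12. At ZT12 5 of the 6 mice lay above all 6 mice at ZT0. The fitted log2 fold change on the TMM scale, which corrects library sizes for composition, was 2.35 ± 0.54 (SE, edgeR adjusted p = 0.0414). In knockout mice usage was 3.02%, 0.54%, 4.13% and 0.92% at ZT0 and 1.12%, 1.64%, 0.62%, 1.84% and 0.78% at ZT12. The difference between the time changes of the genotypes, -2.99 ± 0.80, had an edgeR adjusted p of 0.442, so that it was not shown that the change differed by genotype. The call did not hold in 11 of 21 fits that each left out 1 mouse (each control mouse at ZT0, control ZT12 replicates 2, 3, 4 and 5, and knockout ZT12 replicate 1). Over the 21 fits the adjusted p ranged from 0.0103 to 0.109 and the log2 fold change from 2.10 to 2.56. With the Igkv total as the scale, which compares usage directly, it was 2.19 with an adjusted p of 0.0628.

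Igkv4-73, a pseudogene of family 4, was lower at ZT12. It had 37, 69, 56, 51, 207 and 72 counts in control mice at ZT0 and 16, 0, 18, 14, 10 and 13 at ZT12, so the groups did not overlap, but it made up only 974 counts over all mice. The log2 fold change was -2.68 ± 0.58 (edgeR adjusted p = 0.0298), and the call did not hold in 7 of 21 fits that each left out 1 mouse (control ZT0 replicates 1, 2, 3 and 5 and control ZT12 replicates 3, 4 and 5). Knockout mice had 77, 34, 16 and 36 counts at ZT0 and 44, 13, 43, 41 and 107 at ZT12. A count on a V pseudogene may be a read of a similar gene, which was not tested.

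No member passed edgeR's adjusted p in the other 4 comparisons. For ZT12 over ZT0 in knockout mice the count was 0 of 121 (0.0% of all genes called), with a smallest adjusted p of 0.263. At an unadjusted p under 0.05 were 10 members (8.26%), against 8.01% of all genes. For the difference of the time changes between genotypes the count was also 0 (0.0% of all genes called), with a smallest adjusted p of 0.442. Unadjusted there were 16 members (13.2%), against 10.8% of all genes. Knockout against control at ZT0 gave 0 members (0.00987% of all genes called), with a smallest adjusted p of 0.926. Unadjusted there were 13 members (10.7%), against 4.9% of all genes. Knockout against control at ZT12 gave 0 members (0.0148% of all genes called), with a smallest adjusted p of 0.562. Unadjusted there were 17 members (14%), against 8.83% of all genes. DESeq2 called 1 member, Igkv2-109, of the 106 to which it gave an adjusted p in knockout mice between the times (0.319% of all such genes called), and none in the other 3 comparisons. The median SE of a member was 0.71 to 1.03 on the log2 scale in these 4 comparisons, which limits what could be detected for a single member.

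Groups without overlap in usage were rare among the 70 members of at least 0.1% mean usage. None separated ZT0 from ZT12 in either genotype, against 2.51% of all genes tested in control and 2.37% in knockout mice for CPM. At ZT0 only Igkv14-111 separated the genotypes, at 0.86% to 1.91% in knockout and 2.00% to 3.05% in control mice, where 0.913% of all genes did so. At ZT12 only Igkv3-12 did, at 0.86% to 1.18% in knockout and 0.21% to 0.76% in control mice, where 0.38% of all genes did so. Both members were picked out after their values were seen, and neither passed edgeR's adjusted p.

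Position in the locus was not closely tied to usage. Spearman's rho between mean usage and distance to Igkj1 was -0.077 over the 99 functional members, as a description over genes that share libraries. Over stretches of 500 kb, the highest sum was at 500 to 1000 kb from Igkj1, where 20 of the 99 functional members summed to 23.9%. That stretch holds Igkv8-28, whose mean usage of 2.92% was 1.37% with knockout ZT12 replicate 2 left out. The next highest sum was at 2000 to 2500 kb, where 12 summed to 22.0%. At 1500 to 2000 kb 14 functional members summed to 7.64%, of which Igkv19-93 made up 2.47%, or 1.29% with control ZT12 replicate 2 left out. The 61 functional members opposite to Igkc, which rearrange by inversion, summed to 63.0%, and the 38 on its strand, which rearrange by deletion, summed to 36.9%.

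**Figure D5:**
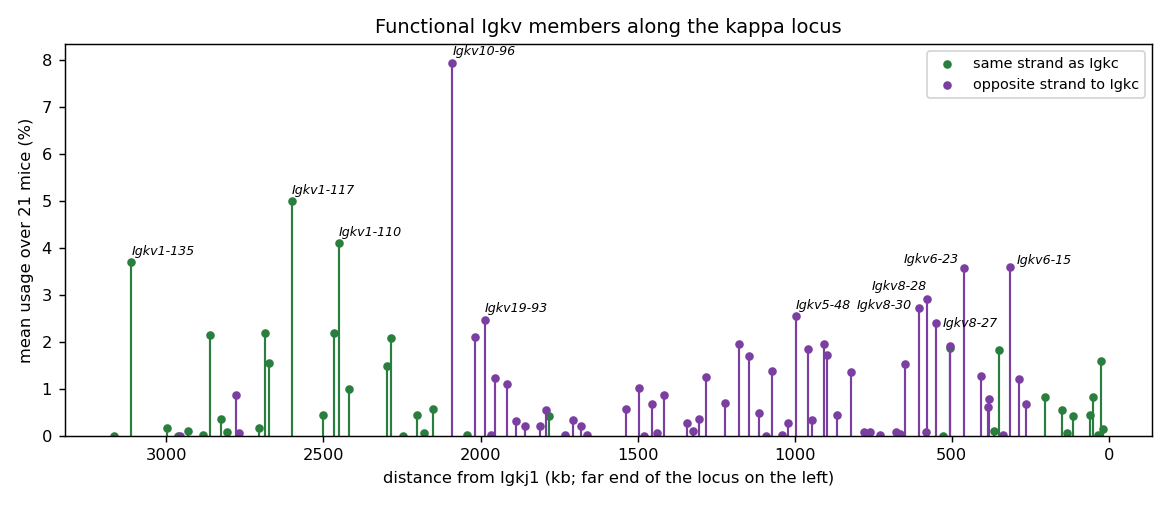
Mean usage over 21 mice (percent of Igkv counts) of the 99 functional Igkv members against distance from Igkj1 in kb, coloured by strand relative to Igkc. Igkv10-96 stands highest at 7.94%, and high members occur at both ends of the locus.

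The shares of the Igkj segments among Igkj counts varied less between mice. Igkj5 held 26.9% to 33.8% of Igkj counts in the 21 mice and led in 20 of them, while Igkj4 led in control ZT0 replicate 2 at 29.1%. Igkj3 held 17.0% to 21.5% of Igkj counts. A mouse had 4927 to 12197 Igkj counts, only 0.154% to 0.702% of its Igkc counts, so these shares rest on a small part of the kappa reads. Whether counts on Igkj genes came from joined transcripts was not tested. Which Igkj segment a V gene was joined to was not measured. Igkc averaged 101873 TMM-scaled CPM in control mice at ZT0 and 132648 at ZT12, a log2 fold change of 0.38 ± 0.12 with an edgeR adjusted p of 0.104. Of 22 genes of the kappa constant and joining segments, V(D)J recombination, end joining and somatic hypermutation, 20 were tested and 0 were called by edgeR in any of the 5 comparisons, with 1 to 3 at an unadjusted p under 0.05 in each. Of all genes tested, 0.0% to 1.73% were called and 4.9% to 18.1% were at an unadjusted p under 0.05 in these comparisons, so the counts of this list did not stand out from the background. Rag1 and Rag2, which cut the recombination signals, were not among those tested. The end-joining genes Xrcc6 and Lig4 were present at 19.6 and 9.25 TMM-scaled CPM in control mice at ZT0.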

How the data were processed

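RNA-seq of IgA+ PCs of 21 mice was used. Poly-A RNA was sequenced in paired ends of 150 bases after sorting, and the authors deposited whole-number counts of reads on each gene, not normalized; the aligner, the counter, strand use and the build are not given in the sources used here. The labels name DESeq2. Gene coordinates in the deposited table matched GENCODE M21 on GRCm38. Groups follow the sample titles. Members and lists were chosen with earlier results of these data known.

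Genes below 10 counts in all were dropped, and edgeR 4.0.16 (R 4.3.3; TMM, robust quasi-likelihood) was fitted to 4 group means, adjusted by Benjamini-Hochberg over 20256 genes with a threshold of 0.05. The spread between mice was taken on log2(CPM + 0.5), with CPM of all counts. Single values per mouse were compared by exact two-sided permutation of mice (scipy 1.17.1), the difference between genotypes in the time effect by permuting the genotype within each time. This last test is exact only where genotype has no effect at either time. In a simulation over 19674 genes, edgeR recovered 170 of 200 genes changed by 2-fold between control ZT12 and ZT0, with 9 false calls. The changed genes were drawn from all genes above a minimum level rather than from Igkv members. In that comparison the median SE was 0.67 over members and 0.35 over all genes, so this recovery does not carry over to members.

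Genes named were the 10 members with the highest mean usage, the leader of each mouse, up to 3 called members per direction and comparison, Igkc, and the member with the highest ratio of its highest to its median usage among those reaching 5%. Igkv14-111, Igkv3-12, Igkv2-109, Igkv8-19 and the Ighv genes were named after their values were seen. V exons came from GENCODE M21 transcripts. Single values of 1 gene of the kappa pathway list are not reported here. Alternatives were DESeq2 1.42.0, other scalings and filters, own groups only, the replicate number as a block, other member filters, thinning, and each mouse left out. The 46 pairs of mice within groups differed by more than sampling noise.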

Additional observations from a re-analysis of the deposited data

Results flagged for a closer look

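Of 80 values by group tested for a sample apart from the rest, 14 were set apart, where the test is set to flag about 1 in 20 groups (4). The members tested included the leader of each mouse and the most uneven member, chosen from these same values. The 14 can therefore not be weighed against that rate. These values came from 9 of the 21 mice. Knockout ZT12 replicate 2 gave 4: its Igkv8-28 usage of 33.9%, which was also its leading share of 33.9%, its effective number of 22.4 and its Igkv6-23 usage of 1.39%. Control ZT12 replicate 2 gave Igkv19-93 at 26.1% and Igkv8-30 at 7.14%.

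Igkv1-117 stood apart in knockout ZT0 replicate 3 at 11.4% and in knockout ZT12 replicate 4 at 6.54%. Igkv1-110, its close relative in sequence, stood apart in other mice, at 9.91% in control ZT12 replicate 3 and 9.65% in knockout ZT0 replicate 1. In control mice at ZT0, Igkv8-30 reached 6.96% in replicate 4, Igkv8-27 3.66% and the pseudogene Igkv4-73 0.022% in replicate 5, and replicate 2 had the lowest Igkv share of all counts in its group, 4.60%. Usage values of a mouse sum to 100%, so these values are not independent of one another. The cause was not tested.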

How the results depend on the processing

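The count of 2 members called between the times in control mice was 7 with DESeq2, 1 with the Igkv total in place of the library size, 1 with the replicate block, 0 with the comparison's own groups only and 0 at an adjusted p of 0.01, and lay between 0 and 5 when each mouse was left out, with 0 in 7 of 21 such fits: control ZT0 replicates 1, 2, 3 and 5 and control ZT12 replicates 3, 4 and 5. The control count was 5 without control ZT12 replicate 1, 4 without replicate 6, and 1 without control ZT0 replicate 4 or 6, control ZT12 replicate 2 or knockout ZT12 replicate 1. With edgeR's filterByExpr filter on low counts Igkv19-93 was called in control mice in addition to the 2. For ZT12 over ZT0 in knockout mice DESeq2 called 1 in place of 0. No other count changed. Under the replicate block Igkv8-24 lost its call (adjusted p 0.0842). Without control ZT12 replicate 6 the control differences in effective number (-11.8) and in the share of the 10 leading members (13.4 points) passed the adjusted threshold, and over all mice left out they ranged from -11.8 to -7.39 and from 8.50 to 13.4. Fold changes of named members and Igkc kept their side of the threshold in 2072 of 2100 refits, with 22 lost and 6 gained calls. Most had no call to lose. Only Igkv8-24 and Igkv4-73 in control mice were called in the main fit, and all 22 losses were theirs. Igkv8-24 kept its call in 10 of 21 fits with 1 mouse left out and in 6 of 9 other alternatives. Igkv4-73 kept it in 14 of 21 and 8 of 9. Signs changed in 81 of these refits and in 36 of 646 refits of single values, never where the value was called or exceeded its SE in both fits. Library size alone moved the median log2 change of all genes by -0.21 in control mice. Mice of the same replicate number had correlations of -0.31 to 0.35 over members, with a median of -0.046. Over genes that are not immunoglobulin genes, with a mean of at least 1 CPM, these ran from -0.34 to 0.62, with a median of -0.0017. The highest was between control ZT12 replicate 5 and knockout ZT12 replicate 5, and its cause was not tested. Both mice also had the highest sums of the epithelial markers, at 473 and 345 CPM. Replicate numbers thus did not pair mice in general, but single pairs were alike. Mice that stand next to one another in the order of the deposited columns can have different replicate numbers. Neither these correlations nor the replicate block covers a grouping by that order.

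Counting error was small for members above 1% of Igkv counts, and the number of mice limits the precision. Similar V exons, somatic mutation and unknown counting rules limit what a count on 1 member means.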
